A study of Homo sapiens with 6 samples.

Results

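The genes of phosphoinositide 3-kinase (PI3K) and AKT signalling were compared between pLB and pLUM cells through 8 genes. These are the catalytic subunits PIK3CA, PIK3CB and PIK3CD, the regulatory subunits PIK3R1 and PIK3R3, the lipid phosphatase INPP4B, and the kinases AKT1 and AKT2. Every probe that names them on the array was taken, which gave 12 probes among 34127 probes of 25940 gene names. All 12 passed the filter on dim signals, which asked for a signal well above background on 3 or more of the 6 arrays, as did 23105 probes in all. Of the 12 probes, 9 were well above background on all 6 arrays. An INPP4B probe reached this level in pLUM alone and a PIK3CD probe in pLB alone. These passed only through the line where they were brighter, and the counts below include them.

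pLUM and pLB are human breast cancer lines derived from T47D, an estrogen receptor-positive luminal line (in its T47Dco subline, by the methods), after growth as xenografts in ovariectomized NSG mice. pLUM came from a tumor grown with estrogen (E) and was sorted for claudin 3 and against CD49f. It was kept in E and received 1 nM E for 72 h before analysis. pLB came from a tumor grown with E plus progesterone, was sorted against claudin 3 and for CD49f, and was kept under E withdrawal (EWD). Both lines were grown in charcoal-stripped serum, fixed, stained for cytokeratin 5 (CK5) and sorted before RNA extraction; which CK5 fraction was hybridized is not given in the sources used here. Each line has 3 arrays, which the methods describe as separate sorts. Whether these sorts came from separate cultures is not stated for the arrays, so the p-values measure only the spread between these samples, which may be technical. Both lines were grown in culture for months before and between sorts, and the time before the first sort was longer for pLB. Because each line descends from 1 tumor and was analysed under 1 hormone condition, line, tumor, culture time and hormone cannot be told apart.

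In class I PI3K a regulatory subunit holds a catalytic subunit and recruits it to activated receptor tyrosine kinases, for example EGFR or ERBB3. The catalytic subunit then phosphorylates a phosphoinositide in the plasma membrane, and AKT kinases bind this lipid, are activated by PDPK1 and the mTOR complex that contains RICTOR, and act on growth, survival and glucose metabolism. Lipid phosphatases oppose this route, and INPP4B among them acts on a product further along it. PIK3CA is often mutated in luminal breast cancers, and INPP4B is known as a gene of luminal cells whose expression is commonly lost in basal-like cancers. The arrays measured transcripts, and phosphorylation or kinase activity was not measured.

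The probes are 60-base oligonucleotides given by the deposited files, and 6 of them are shown because they lie in coding sequence and mark which part of each transcript was read. The probe for PIK3CA reads the kinase domain, that for PIK3CB the C-terminal end, that for PIK3R3 an SH2 domain and that for AKT2 the pleckstrin homology domain. In the PIK3CD probe the 3 capitals are the stop codon, and in the INPP4B probe they are the start codon.
PIK3CA, chr3:178948163-178951939, plus strand, in 2 blocks: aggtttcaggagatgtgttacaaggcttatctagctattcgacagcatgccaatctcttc
PIK3CB, chr3:138374281-138374340, minus strand: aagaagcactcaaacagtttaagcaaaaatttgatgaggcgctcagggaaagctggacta
PIK3CD, chr1:9787045-9787104, plus strand: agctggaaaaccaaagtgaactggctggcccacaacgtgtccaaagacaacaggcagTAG
PIK3R3, chr1:46511591-46511650, minus strand: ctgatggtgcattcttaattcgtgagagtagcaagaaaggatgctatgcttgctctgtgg
INPP4B, chr4:143352358-143352417, minus strand: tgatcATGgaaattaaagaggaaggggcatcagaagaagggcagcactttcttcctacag
AKT2, chr19:40761075-40761134, minus strand: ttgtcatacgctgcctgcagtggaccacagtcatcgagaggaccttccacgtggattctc
Positions are those of the files, in hg19, and all 12 probes carry a transcript that RefSeq lists under the same gene symbol. No run of more than 8 bases was shared by any pair of the 12 probes, related genes included.

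Of the 12 probes, 6 were called lower in pLB and 1 higher, where a call needs a change of 2-fold or more with p below 0.05 by limma after Benjamini-Hochberg adjustment over all 23105 probes. Over all probes 23.7% were called lower, 21.9% higher and 45.6% in either direction, so calls were common in this comparison. The median log2 fold change of the 12 probes was -0.85, against -0.01 for all probes. Values of the lines did not overlap for 10 of the 12 probes, beside 68.1% of all probes. PIK3R3, INPP4B and AKT1 were lower with every probe they have, whereas the probes of AKT2 were divided, and among the catalytic subunits and PIK3R1 the only call was that of a dim PIK3CD probe. Slide and scan divide the arrays in the same way, with pLUM and pLB replicate 1 on the same slide and pLB replicates 2 and 3 on the other. With slide as a block, which compares pLB replicate 1 with the 3 pLUM arrays, the same 6 probes remained lower, and the PIK3CD probe called higher was not called (log2 fold change 2.23, adjusted p = 0.095 by limma).

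**Figure D1:**
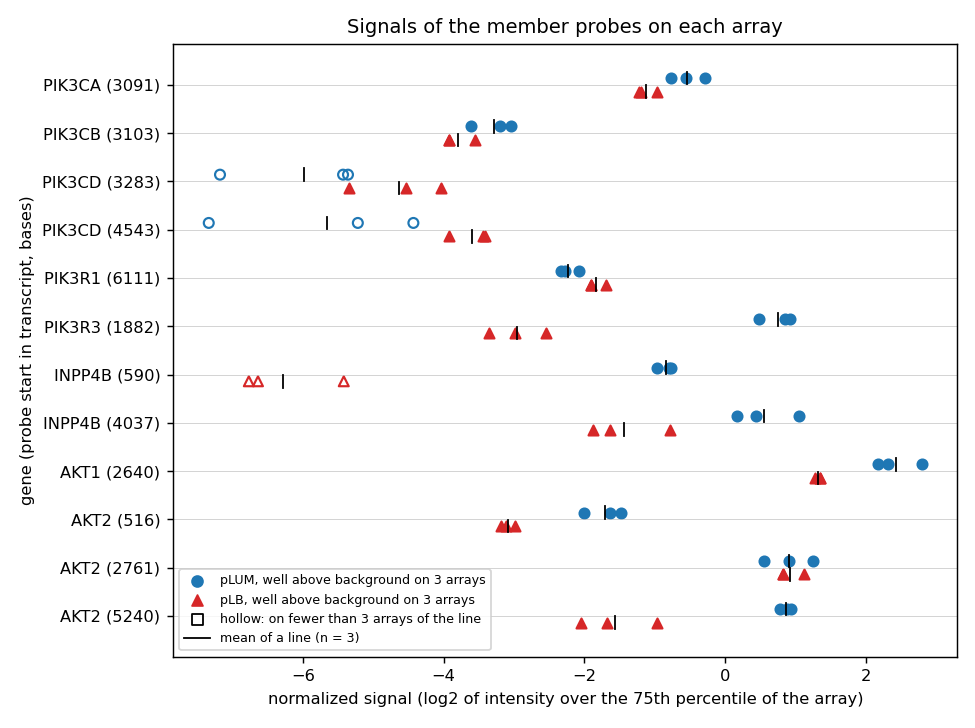
Each symbol is 1 array, each row a probe, named by its gene and the base of the transcript at which it starts, and the x axis is the log2 signal relative to the 75th percentile of the array. Circles are pLUM, triangles pLB, vertical strokes the mean of 3 arrays, and hollow symbols mark a line in which fewer than 3 arrays were well above background. The lines stand far apart for PIK3R3 and for both INPP4B probes, and they overlap for PIK3CB and for the AKT2 probe at base 2761.

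The catalytic subunits showed no call among the probes with clear signals. Signals below are on a log2 scale on which 0 is the 75th percentile of that array, so that they compare a probe between arrays but not 1 probe with another. PIK3CA, the alpha subunit used by most receptor tyrosine kinases in epithelial cells, gave -0.55, -0.28 and -0.77 in pLUM and -1.22, -1.19 and -0.96 in pLB. All pLB arrays were thus below all pLUM arrays, but by 1.5-fold only (log2 fold change -0.59, SE 0.19, adjusted p = 0.029 by limma), under the 2-fold limit. PIK3CB, the beta subunit, gave -3.61, -3.04 and -3.20 in pLUM and -3.55, -3.93 and -3.92 in pLB. These overlapped, and the log2 fold change of -0.51 (95% interval -1.02 to -0.01) had an adjusted p = 0.070 by limma.

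PIK3CD, the delta subunit best known from leukocytes, was dim in pLUM. Its probe at base 4543 (chr1:9788305-9788364) read -5.22, -7.34 and -4.43 in pLUM, where only 1 array was well above background, and -3.44, -3.41 and -3.93 in pLB. The pLB arrays were all brighter and the probe was called higher (fitted log2 fold change 2.07, SE 0.68, adjusted p = 0.031 by limma), with pLUM varying widely (mean -5.66 ± 1.51 against -3.59 ± 0.30, SD, n = 3 each). The probe that ends on the stop codon read -5.36, -7.18 and -5.43 in pLUM, not well above background on any array, and -4.53, -5.34 and -4.04 in pLB. It was not called (log2 fold change 1.35, 95% interval 0.07 to 2.63, adjusted p = 0.064 by limma), and no direction is given for it. With normexp correction its value was -0.25, whereas it was positive under the other alternatives that fitted it. Normexp adds an offset of 50 to every signal before scaling, so values of such dim probes depend largely on offset and scaling. The value with normexp therefore cannot decide a direction here. The higher call at base 4543 was absent with normexp background correction, where the log2 fold change was 0.03 under the same limit. It was also absent without pLB replicate 1 (adjusted p = 0.065 by limma) or pLB replicate 2 (adjusted p = 0.081). The size of the difference was also unsettled, at 1.23 without pLUM replicate 2, 2.69 without pLUM replicate 3 and 1.43 with a signal floor, on the log2 scale.

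Of 5 leukocyte markers, 4 were tested by limma with their brightest probe and none was called, with log2 fold changes from -0.47 to 0.77 and an unadjusted p under 0.05 for 2 of them (CD14 and ITGAM). PTPRC and CD14 were well above background in both lines, and the summed level of the list, as a multiple of the 75th percentile, was 0.18 to 0.317 in pLUM and 0.196 to 0.319 in pLB. A further PTPRC probe was lower in pLB (log2 fold change -1.20), and 3 others were not well above background on any array. The part of leukocyte RNA in the PIK3CD signal was not tested. In arrays of sorted cells, fewer cells that express a gene and less RNA per cell cannot be told apart.

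Of the regulatory subunits, PIK3R3 was called and PIK3R1 was not. PIK3R3, which encodes a short regulatory subunit that binds phosphotyrosine through its SH2 domains, gave 0.92, 0.86 and 0.49 in pLUM and -3.35, -2.99 and -2.54 in pLB. Every pLB array was far below every pLUM array (0.76 ± 0.23 against -2.96 ± 0.40, SD, n = 3 each), a 13.1-fold lower signal in pLB (log2 fold change -3.72, SE 0.25, adjusted p = 1.7e-05 by limma). A difference at least this large in the same direction was called for 510 probes, or 2.21% of those tested. With normexp correction it was 7.26-fold lower. PIK3R1, the most widely used regulatory subunit, gave -2.28, -2.33 and -2.08 in pLUM and -1.91, -1.90 and -1.69 in pLB. The pLB arrays were slightly brighter without overlap, but the 1.31-fold difference was not called (log2 fold change 0.39, 95% interval 0.01 to 0.78, adjusted p = 0.070 by limma), and with normexp correction it was -0.00051 on the log2 scale.

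INPP4B, which removes a phosphate from the lipid that follows the PI3K product, was lower in pLB with both probes. The probe over the start codon gave -0.80, -0.76 and -0.97 in pLUM and -6.64, -6.77 and -5.42 in pLB, where none of the arrays was well above background. With dim values raised to the lowest signal well above background, its processed signal was at least 21.9-fold lower in pLB. The fit gave an adjusted p = 1.6e-05 by limma. With normexp correction the signal was 6.27-fold lower, so this bound holds for the processed signal only. The probe at base 4037 (chr4:142949208-142949267) gave 1.05, 0.44 and 0.17 in pLUM and -1.87, -1.64 and -0.78 in pLB, well above background on all 6 arrays. Here pLB remained measurable, 3.96-fold below pLUM (log2 fold change -1.99, SE 0.34, adjusted p = 0.0018 by limma).

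The difference between the log2 signals of the INPP4B probes, that at base 590 minus that at base 4037, was -1.40 ± 0.39 in pLUM and -4.85 ± 0.25 in pLB (SD, n = 3 each). The lines did not overlap in this difference, a shift of -3.45 in pLB, and the exact two-sided permutation test gave p = 0.10, the smallest that 3 arrays against 3 can give (0.12 after Benjamini-Hochberg adjustment over 5 such differences). The probe at base 590 was not well above background in pLB, so the size of this shift rests on a dim signal. How often such differences fail to overlap in other genes with several probes was not counted.

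**Figure D2:**
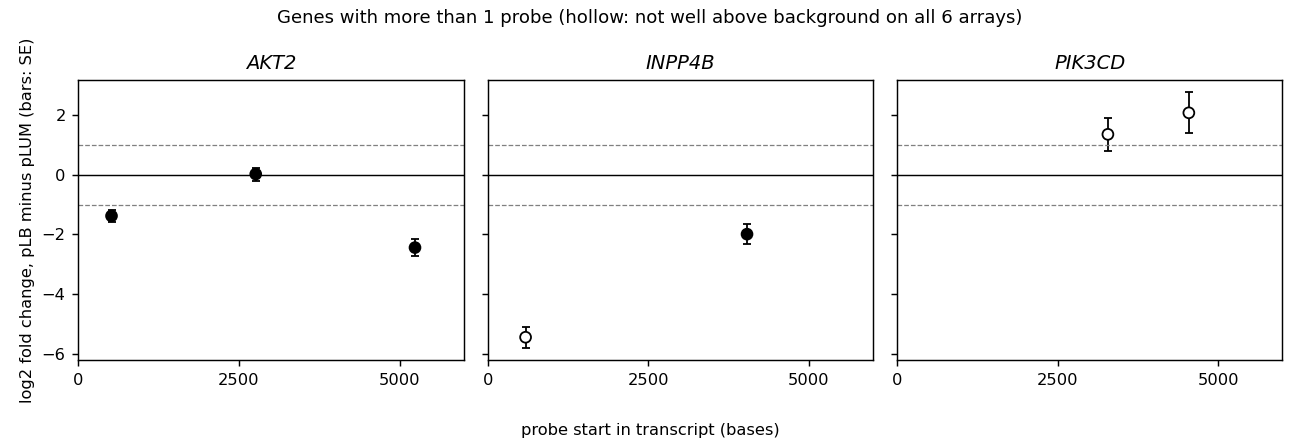
The log2 fold change between the lines (y axis, pLB minus pLUM, bars are SE) is plotted against the start of each probe in its transcript (x axis, bases) for the 3 genes with several probes, with dashed lines at 2-fold. Hollow points were not well above background on all 6 arrays; the 3 AKT2 points lie at -1.38, 0.02 and -2.44, whereas both INPP4B points are below the lower dashed line.

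The AKT kinases were lower in pLB for AKT1 and divided by probe for AKT2. AKT1, the form tied to growth and survival, was read by a probe at base 2640 (chr14:105235975-105236034), with 2.32, 2.18 and 2.80 in pLUM and 1.35, 1.35 and 1.28 in pLB. The pLB arrays lay close together and below all pLUM arrays, by 2.15-fold (log2 fold change -1.10, SE 0.20, adjusted p = 0.0023 by limma). This call sat at the 2-fold limit and was lost with normexp correction (-0.98), with scaling to the spike-in controls (-0.85) and without pLUM replicate 3 (-0.92).

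AKT2, the form tied to insulin signalling and glucose uptake, has 3 probes. In the pleckstrin homology domain the values were -2.01, -1.48 and -1.64 in pLUM and -3.11, -3.18 and -2.98 in pLB, a 2.6-fold lower signal (log2 fold change -1.38, SE 0.19, adjusted p = 0.00059 by limma). At base 5240 (chr19:40736224-40736283) they were 0.94, 0.79 and 0.88 in pLUM and -2.04, -1.68 and -0.97 in pLB, 5.41-fold lower (log2 fold change -2.44, SE 0.28, adjusted p = 0.00022 by limma). Both of these probes separated the lines completely. At base 2761 (chr19:40738703-40738762) the values were 0.91, 0.56 and 1.25 in pLUM and 0.82, 1.13 and 0.83 in pLB. They overlapped, and the log2 fold change was 0.02 with a 95% interval from -0.50 to 0.54 (adjusted p = 0.94 by limma), so that a 2-fold change in either direction was outside the interval.

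The log2 signal at base 2761 minus that at base 5240 was 0.03 ± 0.31 in pLUM and 2.49 ± 0.60 in pLB (SD, n = 3 each), and at base 516 minus base 2761 it was -2.62 ± 0.50 in pLUM and -4.02 ± 0.26 in pLB. The lines did not overlap in either difference, nor in base 516 minus base 5240 (a shift of 1.05), and each had an exact two-sided permutation p = 0.10 (0.12 adjusted over the 5 differences). All 3 AKT2 probes were well above background on all 6 arrays, so these shifts rest on measured signals. As for INPP4B, the share of other genes with such shifts was not counted. When the 3 probes were averaged, AKT2 was called lower by 2.4-fold, whereas its brightest probe alone, that at base 2761, was not called.

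**Figure D3:**
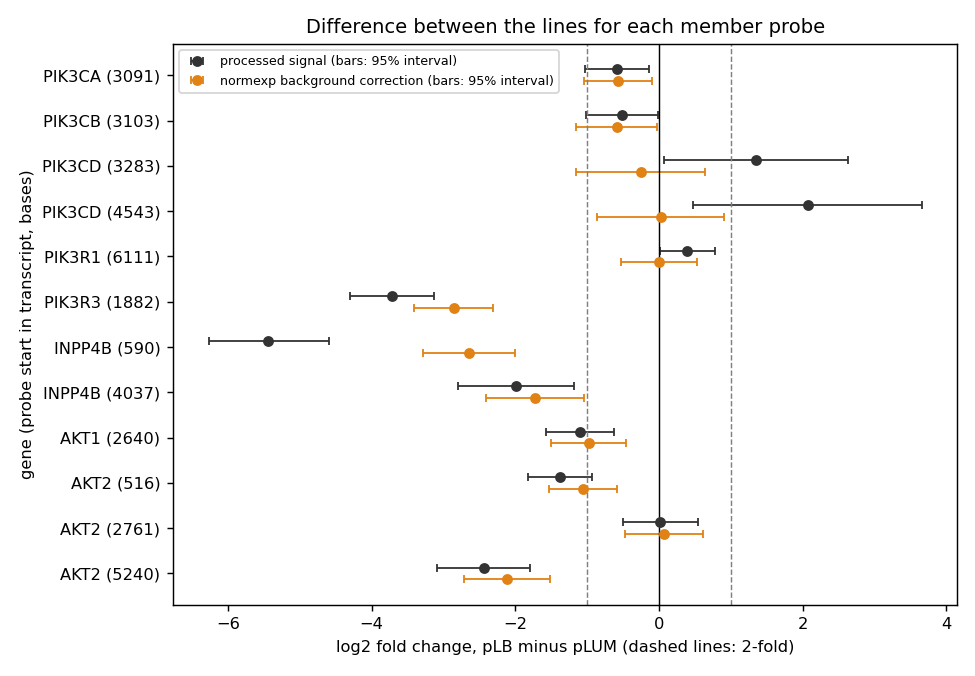
Points are the log2 fold change of each probe (pLB minus pLUM, x axis) with 95% intervals, from the processed signal (dark) and after normexp background correction (orange), with dashed lines at 2-fold. The dim probes of PIK3CD and the INPP4B probe at base 590 move most between the corrections, and PIK3R3, both INPP4B probes and the AKT2 probes at 516 and 5240 stay beyond 2-fold in both.

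The rest of the pathway was described by 68 further genes in 6 lists, of which 60 were tested, each with its brightest probe. Of these, 16 were higher in pLB, 18 lower and 26 not called. That is 56.7% called, beside 45.7% of all genes by the same rule (22.7% higher and 23% lower). The median log2 fold change was -0.12. Of 24 genes with several tested probes, 12 had probes with unlike calls, so that AKT2 was not alone in this. Scaling to the spike-in controls gave 22 higher and 12 lower.

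Among 10 other genes of PI3K subunits or of an adaptor of PI3K, 6 were tested, 2 were lower and none was higher. The median log2 fold change was -0.41. The called genes were the class II kinases PIK3C2A (log2 fold change -1.54, adjusted p = 0.00034 by limma) and PIK3C2B (-1.11, adjusted p = 0.00098). The other PIK3C2B probe overlapped between the lines and was not called (-0.43, adjusted p = 0.25 by limma). PIK3R2, a further regulatory subunit, read 3.79 ± 0.20 in pLUM and 4.72 ± 0.14 in pLB (SD, n = 3 each), and its log2 fold change of 0.93 was under the 2-fold limit (adjusted p = 0.0031 by limma). PIK3CG, the gamma subunit of myeloid cells, and its partner PIK3R6 were dim on every array, none of them well above background.

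A list of 14 genes held phosphatases and inhibitors that oppose PI3K or AKT, together with genes of the tribbles family. Of these, 13 were tested, 4 were higher and 4 lower, with a median log2 fold change of 0.48. INPP4A, the paralog of INPP4B, was higher in pLB by 3.54-fold, from -5.05 ± 0.27 to -3.23 ± 0.20 (SD, n = 3 each; adjusted p = 0.00021 by limma), with 2 of 3 pLUM arrays well above background. INPP4A and INPP4B thus differed in opposite directions.

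INPP5D, an inositol phosphatase best known from blood cells, was not well above background in pLUM. Its processed signal was at least 17.3-fold higher in pLB (adjusted p = 5.1e-05 by limma). The leukocyte marker values given above apply to it too, and the part of such RNA in its signal was not tested. TRIB2 and TRIB1 are pseudokinases of the tribbles family that bind AKT or ubiquitin ligases. No opposing role is claimed for them here, and their effect on AKT was not tested. TRIB2 rose from -3.54 ± 0.22 in pLUM to 3.83 ± 0.34 in pLB (165-fold, adjusted p = 6.7e-07 by limma), and TRIB1 was 8.09-fold higher. In the opposite direction, PHLPP2, which dephosphorylates AKT, was 4.56-fold lower (adjusted p = 2.5e-05 by limma), while the log2 fold change of its paralog PHLPP1 was 0.86 (adjusted p = 0.0084) and not called.

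Among 13 genes of related kinases, activators of AKT and the mTOR complexes, 12 were tested, 4 were higher and 1 lower, with a median log2 fold change of 0.64. SGK1, a kinase related to AKT and induced by glucocorticoids, was 17.1-fold higher in pLB (-3.97 ± 0.34 against 0.13 ± 0.17, SD, n = 3 each; adjusted p = 6.2e-06 by limma). The processed signal of SGK2 was at least 4.05-fold lower, with no pLB array well above background.

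AKT1S1, an inhibitory partner of mTOR, was called higher with its brightest probe (log2 fold change 1.39) and lower with its other probe, which was not well above background on any array of pLB. DEPTOR, a further inhibitor within the mTOR complexes, was 2.54-fold higher in pLB (adjusted p = 0.00095 by limma). The upstream kinase PDPK1 was called with neither probe (log2 fold changes -0.26 and -0.52), and MTOR had a log2 fold change of 0.93 (adjusted p = 0.0034 by limma), under the 2-fold limit.

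Of 7 genes of adaptors and other proteins that bind PI3K, directly or through partners, 6 were tested. Of these, 2 were higher and 3 lower, with a median log2 fold change of -0.65. IRS2, an insulin receptor substrate, was 23-fold higher in pLB (-3.46 ± 0.13 against 1.06 ± 0.16, SD, n = 3 each; adjusted p = 1.4e-06 by limma). IRS1 was higher with its brightest probe (log2 fold change 1.73) and not called with its other (-0.27). FRS2, the adaptor of fibroblast growth factor receptors, was 13.1-fold lower (adjusted p = 5.1e-06 by limma), and GAB2 was 3.97-fold lower.

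Among 15 substrates of AKT and their near effectors, all were tested, with 5 higher, 4 lower and a median log2 fold change of 0.09. FOXO1, a transcription factor that AKT keeps out of the nucleus, was 9.91-fold higher in pLB (adjusted p = 2.3e-05 by limma), and EIF4EBP1, a translation repressor, was 4.89-fold higher. RPS6KB1, the S6 kinase, was 5.8-fold lower with its brightest probe and had a log2 fold change of -0.89, not called, with the other. CDKN1B, a cell cycle inhibitor, was 2.71-fold lower with its brightest probe and not called with the other (log2 fold change 0.37).

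Of 12 genes known to be induced by FOXO factors, 10 were tested, 2 were higher and 5 lower, with a median log2 fold change of -0.67. SESN3, a stress sensor, was dim in pLUM and its processed signal was higher in pLB by at least 8.64-fold. IRS2 was higher, as given above. ERBB3, a receptor that docks PI3K directly, was lower with all 3 probes (6.39-fold with the brightest, adjusted p = 0.0005 by limma), and CDKN1B was also lower, as given above.

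**Figure D4:**
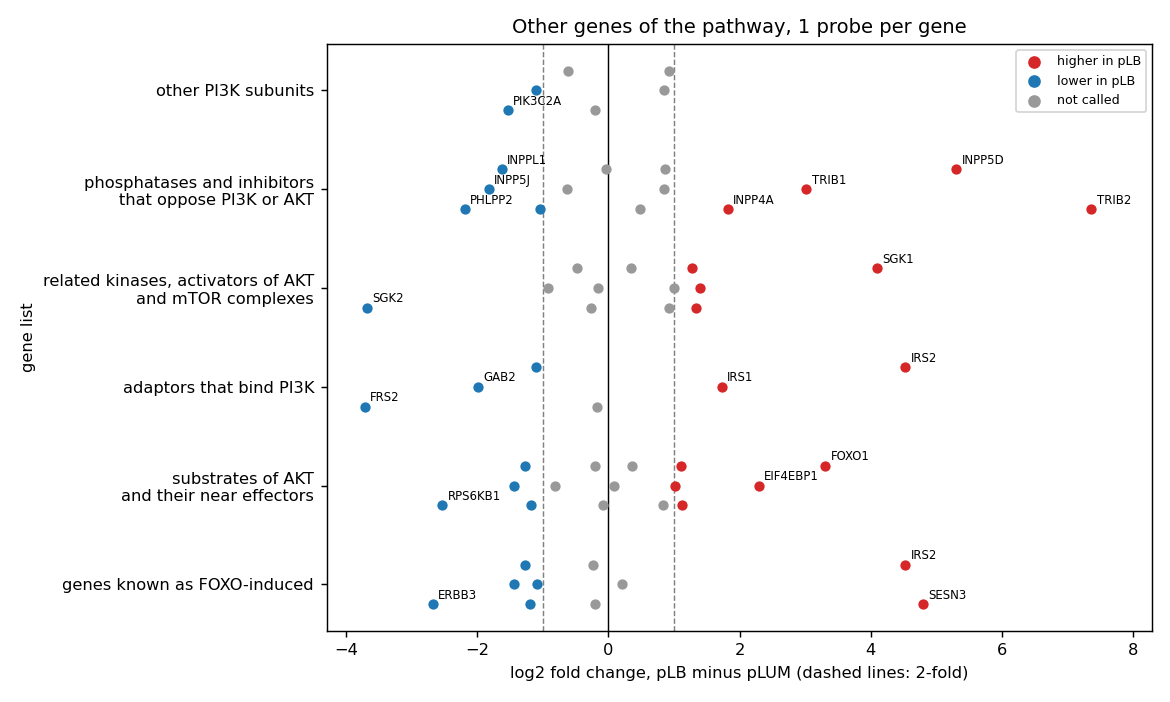
Each point is the brightest probe of a gene, placed by its log2 fold change (x axis, pLB minus pLUM, dashed lines at 2-fold) in rows for the 6 gene lists, with small vertical offsets for legibility only. Red points were called higher in pLB, blue lower and grey not called, and genes beyond 1.5 in either direction are named; in every list but the other PI3K subunits, genes were called in both directions. For INPP5D, SESN3 and SGK2 the fitted value is plotted, although 1 line was not well above background on any of its arrays. The row of phosphatases and inhibitors also holds the tribbles genes.

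Marker genes were read to describe the lines. By the brightest probe of each gene, 7 of 8 luminal markers were lower in pLB and all 6 basal markers were higher. The lines were sorted on the products of CLDN3 and ITGA6, and the cells on that of KRT5, so these are not an independent check. The other luminal and basal markers are also among those the paper reported for these lines. Another probe of the luminal marker KRT8 was called higher (log2 fold change 1.89). COL3A1, PDGFRA and DCN of 5 fibroblast markers and PECAM1 and KDR of 4 endothelial markers were not well above background on any array, while COL1A2 and VWF were called higher in pLB. The summed fibroblast level, as a multiple of the 75th percentile, was 0.719 to 0.945 in pLUM and 0.757 to 1.09 in pLB, and the endothelial level 0.0562 to 0.0879 and 0.0825 to 0.159. The part of such RNA in the differences above was not tested.

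The probes whose signals ran most like that of INPP4B at base 590 over the 6 arrays were those of SERPINB1, ARMCX4 and PAGE2 (Pearson r 0.9997, 0.9997 and 0.9996), as a description, with the line difference shared by all. Such likeness was common, since 4183 of 23099 probes had r over 0.95. For PIK3CD at base 4543 the closest were IRF3, SLC1A4 and FAM117A (r 0.9962, 0.9909 and 0.9895), and 33 probes had r over 0.95. Their log2 fold changes between the lines were 0.41, 1.01 and 0.28.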

How the data were processed

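RNA of 3 pLUM and 3 pLB samples was measured on 1-colour Agilent arrays. The authors deposited the Feature Extraction 10.10.1.1 output of each array, with a background-corrected intensity per spot on a linear scale, not normalized between arrays. Here log2 intensity minus the 75th percentile of the gene spots of each array was used. Outlier spots (296 to 387 per array) were left out, no gene spot was saturated, and spots of a probe were averaged. Per array, signals well above background were found for 21285 to 22775 probes, and the number of arrays limits the precision. Probes that reached this level on 3 or more of the 6 arrays entered the lmFit and eBayes steps of limma 3.58.1 (R 4.3.3), which were tested on simulated data. Where a line had no array above background, the fold is a lower bound. Correlations were 0.972 to 0.991 within lines and 0.78 to 0.806 between them.

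Groups came from the labels. Replicate numbers were not used as pairs, since deviations of same-numbered arrays correlated at -0.265, -0.095 and -0.217. The genes and lists were chosen with earlier results of these data known. Beside the 8 genes with all probes, the text names, per list, the 4 called genes that differed most and PHLPP1, PHLPP2, PDPK1, MTOR, INPP4A and PIK3R2. Some genes of the lists are not reported here and were left out of the counts. PIK3CG and PIK3R6 were named after their values were seen. Alternatives were normexp background correction (offset 50), other scalings, other filters and a signal floor, no fold threshold, the methods' t-test, slide and replicate blocks, probe means and leaving out each array.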

Additional observations from a re-analysis of the deposited data

How the results depend on the processing

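PIK3R3, INPP4B at base 4037 and AKT2 at bases 516 and 5240 kept their direction and call under all 17 alternatives, and INPP4B at base 590 under the 16 that gave it a value. The number of these probes called lower was 5 to 7 (main 6). The number called higher, main 1, was 0 with normexp correction, without a filter on dim probes, with a filter that asks for all 6 arrays (which leaves out both PIK3CD probes), with the methods' t-test and with a slide block, and 2 with quantile, median or spike-in scaling. Leaving out 1 array gave 0 to 1, with 0 without pLB replicate 1. Normexp lowered the number of all probes called higher from 5054 to 3004, and the values of PIK3CD at base 3283 to -0.25 and of PIK3R1 to -0.00051. With its offset, values of dim probes under normexp cannot decide a direction. Leaving out 1 array moved AKT2 at base 2761 (main 0.02) between -0.15 and 0.19. It had a log2 fold change of -0.01 with quantile normalization, -0.09 with a slide block, -0.15 without pLUM replicate 2 and -0.08 without pLB replicate 2. The cause of these changes was not tested. Spike-in scaling moved the median of all probes from -0.01 to 0.25 and the share of calls that were higher from 48% to 58.4%, normexp moved the median to -0.26 and the share to 42.7%, and a slide block moved the median to -0.11. PIK3CA was called lower once no fold threshold was set. With the replicate number as a block, 2 probes were called higher, PIK3CD at base 3283 being added (1.35, adjusted p = 0.01 by limma), and the numbers do not pair the samples.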
